A study of Mus musculus with 8 samples.

Results

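Chromosome 8 of the mouse carried a small excess of RNA, as a median over its genes, in both double knockout samples of a malignant mesothelioma series. Of its genes described here, 50 departed from that excess (7.81%). This share was near the background, as 7.49% of all genes tested departed from the shift of their own chromosome. The genes described are the 640 whose level averaged at least 5 CPM over all 8 samples, among 2537 genes listed on the chromosome and 1596 with at least 1 count. CPM is a gene's counts scaled to a common library size, adjusted between libraries with TMM factors. The minimum passed 11923 genes over the whole genome, 10881 of them on the 18 other autosomes. A gene high only in the double samples passed this minimum through those samples: 6 members averaged under 5 CPM in the triple samples and 16 averaged under 5 CPM in the double samples. Just inside the minimum stood Erich1 (5.03 CPM), Gm7901 (5.11 CPM) and Gm45250 (5.17 CPM), and just outside it B3gnt3 (4.98 CPM), Cenpu (4.97 CPM) and Spock3 (4.92 CPM).

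The samples were malignant mesotheliomas from conditional mouse models; mesothelioma is a cancer of the pleura and other linings. The double knockout group (2 samples) had lost Nf2, which encodes the Hippo regulator merlin, and Cdkn2a, which encodes cell cycle inhibitors. The triple knockout group (6 samples) had lost Nf2, Cdkn2a and Bap1, a histone H2A deubiquitinase, so losses of Nf2 and Cdkn2a are shared by both groups. Per the labels, cells grew in medium with serum and insulin; the labels do not give the Cre driver, the age of the mice, or whether samples came from separate animals or clones. P-values therefore measure the spread between these samples, which may be technical. Every difference below is double minus triple, so a positive value is a higher level in the double samples.

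A few facts of the whole series bear on these values. Total counts ran from 26847202 to 32082535. Bap1, on chromosome 14, had 104 and 71.2 CPM in the double pair and, triple samples 1 to 6 in turn, 56.4, 61.6, 55.8, 43.6, 70.4 and 62.9 CPM (adjusted p = 0.122, edgeR). The labels used here do not give the deleted exons, so these whole-gene counts do not check the genotypes. Double sample 1 stood apart, with a TMM factor of 0.780 against 0.997 to 1.10 in the others and mitochondrial genes at 4.04% of counts against 1.17% to 2.33%. The summed level of 6 embryonic muscle markers was 3563 and 1590 CPM in the double pair against 1.91 to 65.8 CPM. That of 6 adult muscle markers was 41990 and 1632 CPM against 73.5 to 9417 CPM, of 8 leukocyte markers 918 and 1997 CPM against 1872 to 2975 CPM, and of 6 endothelial markers 357 and 265 CPM against 154 to 409 CPM. The 8 mesothelial markers summed to 283 and 1344 CPM against 54.2 to 609 CPM, but did not move together. Msln was at 248 and 342 CPM against 12.6 to 194 CPM, and Krt8 reached 799 CPM in double sample 2. Wt1, Upk3b, Lrrn4 and Krt19 were highest in triple sample 3 (33.3, 173.5, 75.6 and 53.1 CPM) and at most 8.19 CPM in any other sample. Calb2 (calretinin), which lies on chromosome 8, was at 0 in 7 samples and at 0.0325 CPM in the other. In bulk samples, fewer cells of a type and less RNA per cell cannot be told apart.

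A chromosome is not a pathway, and its genes share a DNA molecule rather than a function. Genes on a chromosome are read largely independently, each from its own promoter. Close neighbours can also share a promoter or an enhancer, as do divergent gene pairs read in opposite directions from a common start region and clusters such as the metallothioneins. Gene copy number was not measured here. Mouse chromosome 8 holds, among others, the insulin receptor gene, the fibroblast growth factor receptor gene Fgfr1, the Irx and Foxf1 transcription factor loci, the metallothionein cluster and a series of cadherin genes.

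The start regions of 5 of the genes on which the results turn are shown, because these genes either departed furthest from the chromosome or departed as a divergent pair. Each window runs from 250 bases before to 50 bases after a RefSeq start site on GRCm38.p6, read 5′ to 3′ on the gene's strand. In Cdh15 (chr8:122848124-122848423, plus strand) and Asb5 (chr8:54550081-54550380, plus strand, 1 of its 3 windows) the capitals mark the E-box pattern CANNTG, the motif that myogenic helix-loop-helix factors are known to bind.
Cdh15: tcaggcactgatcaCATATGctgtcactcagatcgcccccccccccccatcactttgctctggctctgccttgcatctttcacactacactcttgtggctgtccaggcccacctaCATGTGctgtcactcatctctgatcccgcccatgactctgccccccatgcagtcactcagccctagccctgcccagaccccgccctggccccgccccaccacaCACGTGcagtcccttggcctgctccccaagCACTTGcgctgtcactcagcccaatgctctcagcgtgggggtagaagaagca
Asb5: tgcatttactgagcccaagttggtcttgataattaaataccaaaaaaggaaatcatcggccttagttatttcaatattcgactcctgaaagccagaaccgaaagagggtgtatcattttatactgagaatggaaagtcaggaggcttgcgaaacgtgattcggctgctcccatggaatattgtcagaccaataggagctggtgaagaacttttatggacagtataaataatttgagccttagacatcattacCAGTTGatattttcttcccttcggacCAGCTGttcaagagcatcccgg
In Fendrr (chr8:121083061-121083360, minus strand) the capitals mark each CG dinucleotide.
Fendrr: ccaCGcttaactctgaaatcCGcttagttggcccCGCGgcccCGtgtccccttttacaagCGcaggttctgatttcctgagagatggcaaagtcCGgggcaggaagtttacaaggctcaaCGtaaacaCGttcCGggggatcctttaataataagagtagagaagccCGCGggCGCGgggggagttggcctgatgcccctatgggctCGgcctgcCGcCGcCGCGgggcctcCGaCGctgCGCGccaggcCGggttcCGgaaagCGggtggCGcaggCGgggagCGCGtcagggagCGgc
In Gnpat (chr8:124862783-124863082, plus strand) and 2810004N23Rik (chr8:124862980-124863279, minus strand) the capitals mark the 103 bases that lie in both windows.
Gnpat: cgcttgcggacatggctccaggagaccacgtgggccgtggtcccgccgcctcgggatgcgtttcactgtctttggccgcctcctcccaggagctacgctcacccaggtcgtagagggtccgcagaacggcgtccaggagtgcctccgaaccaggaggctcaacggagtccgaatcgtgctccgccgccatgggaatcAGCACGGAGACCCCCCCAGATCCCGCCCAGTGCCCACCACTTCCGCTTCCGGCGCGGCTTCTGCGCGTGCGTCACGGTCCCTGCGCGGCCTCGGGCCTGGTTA
2810004N23Rik: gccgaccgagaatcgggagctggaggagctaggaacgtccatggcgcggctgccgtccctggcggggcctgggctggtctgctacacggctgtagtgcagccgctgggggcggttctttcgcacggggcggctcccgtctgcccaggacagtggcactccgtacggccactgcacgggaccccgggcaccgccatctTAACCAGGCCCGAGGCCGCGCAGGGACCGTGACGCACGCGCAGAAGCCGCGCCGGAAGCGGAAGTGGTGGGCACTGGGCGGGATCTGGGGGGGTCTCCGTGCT
The Cdh15 window held 4 matches to this pattern and 7 CG dinucleotides, the Asb5 window 2 matches and 8 CG dinucleotides. The Fendrr window held 31 CG dinucleotides. The pattern reads the same on both strands. It was found in 72.3% of all 32851 windows of the genome and in 64.1% of the 535 windows that 428 of the members had. Members above the chromosome-wide shift had it in 34 of 39 windows, those below it in 10 of 13, and the other members in 299 of 483 (61.9%). The pattern covers the form CAGCTG, and the Asb5 window shown was chosen among its 3 because it holds this form. Its presence there is therefore not a result. The form CAGCTG was found in 12.8% of the windows of the members above, 15.4% of those below, 12.4% of the others and 16.3% of all windows. A match describes these letters only.

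The median member of chromosome 8 was 0.30 higher in the double samples on the log2 CPM scale, a 1.23-fold difference. The median of the genes of the other autosomes was -0.02, and the medians of the 18 other autosomes ran from -0.10 (chromosome 5) to 0.21 (chromosome 19). Of the 640 members 430 were above 0 (67.2%), against 48.5% of the genes of the other autosomes and 41.0% to 62.7% on any 1 of them. The spread around the median was not wider on chromosome 8: the middle 50% of its genes spanned 0.82 log2 units, from -0.13 to 0.69, against 0.90 on the other autosomes together. A difference within 0.5 of the median was found for 371 members (58%), and for 54.9% of genes of the other autosomes around their own chromosome's median.

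Each sample was then described by the median of its chromosome 8 genes, each gene taken relative to its mean over the 8 samples. For double samples 1 and 2 this median was 0.18 and 0.27. In triple samples 1 to 6 it was -0.08, -0.07, -0.08, -0.06, -0.07 and -0.05. Both double samples were thus above every triple sample, and the triple samples lay within a narrow range. Relative to the same sample's other autosomes, the values were 0.22 and 0.27 in the double samples and -0.10 to -0.07 in the triple samples. In double sample 1 no other autosome reached the level of chromosome 8 (the highest was at 0.10), although its autosomes as a group ranged down to -0.19. In double sample 2 chromosome 19 stood higher still, at 0.35, while in double sample 1 chromosome 19 was at -0.04. Of the members, 58.6% and 77.7% exceeded their own mean in double samples 1 and 2, against 38.4% to 41.9% in the triple samples. The pooled within-group SD of the sample medians was 0.028.

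**Figure D1:**
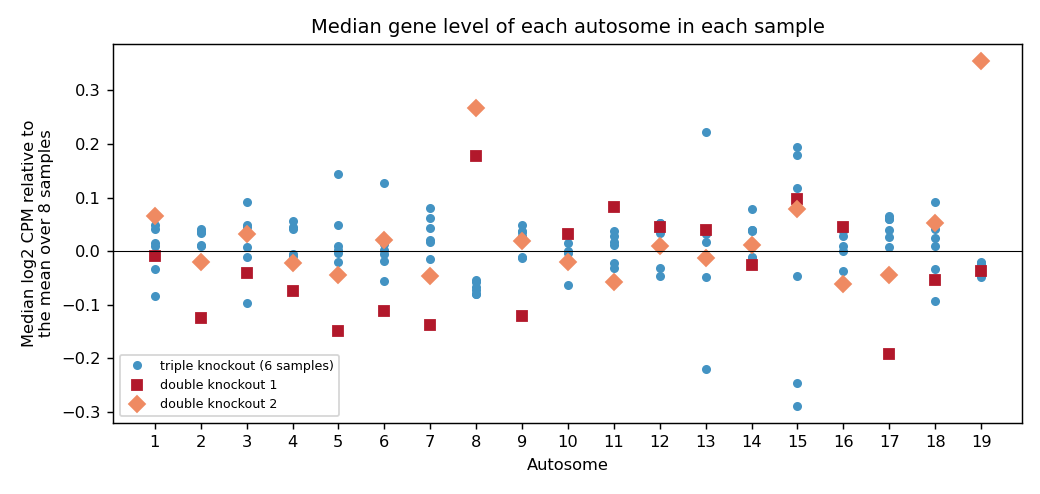
Median over genes of log2 CPM relative to each gene's mean over the 8 samples (y axis, log2 units) for each autosome (x axis); squares and diamonds are double knockout samples 1 and 2 and circles the 6 triple knockout samples. On chromosome 8 the double samples lie at 0.18 and 0.27 and all triple samples between -0.08 and -0.05.

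The code in the sample descriptions, whose meaning the labels do not give, is SN930 for double sample 1 and triple samples 4, 5 and 6. Each of the other 4 samples has a code of its own. Where the code is a term of a fit below, it was entered as SN930 or other. Within SN930 the chromosome 8 median difference was 0.27. Between the other double sample and the triple samples outside SN930, which share no code with it, the median difference was 0.34. Each of these comparisons holds a single double sample, so code and sample cannot be told apart there. The median was above 0 in each kind of gene examined, but not of 1 size. It was 0.16 for the 154 members at 5 to 20 CPM, 0.31 for the 230 at 20 to 50 CPM, 0.35 for the 136 at 50 to 100 CPM and 0.38 for the 120 at 100 CPM or more, where the other autosomes gave -0.06, -0.01, -0.01 and -0.03. By the span of the gene, it was 0.36 for the 159 members shorter than 10 kb and 0.09 for the 73 of 100 kb or longer. The 619 protein-coding members had a median of 0.31, and the 21 others, lncRNAs and pseudogenes, 0.04. Among the 527 members that the test below did not call, the median was 0.19, against -0.04 for uncalled genes of the other autosomes.

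By edgeR's quasi-likelihood test, fitted on all 17709 genes of the table and adjusted over them by Benjamini-Hochberg, 103 of the 640 members were higher in the double samples (16.1%) and 10 were lower (1.56%). Over all genes tested 8.35% were called, 5.41% higher and 2.94% lower. Among genes of the other autosomes with the same minimum level these shares were 5.15% and 2.99%. The share called higher on any 1 other autosome ran from 2.63% (chromosome 17) to 10.2% (chromosome 19). Both double samples lay above all 6 triple samples for 212 members (33.1%), against 10.7% of genes of the other autosomes, and below all 6 for 33 members (5.16%), against 13.7%. The called members higher in the double samples had a median log2 fold change of 1.15 and a range of 0.63 to 7.39; no difference as small as the chromosome's median was called. The count of calls rested on single samples. It was 13 without double sample 1, 260 without double sample 2 and 36 to 57 with a triple sample left out, while the share called higher stayed above that of the other autosomes: 1.72% against 0.938% without double sample 1, and 27.7% against 17.7% without double sample 2. Of the 113 called members 6 kept their call in all 8 fits that left out a sample (Cdh15, Fendrr, Adgrl1, Exoc3l, Sap30 and 2810004N23Rik), and 8 kept it without double sample 1, so the other calls given below rest on at least 1 library. Both fits with 1 double sample assume that it varies like the triple samples.

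**Figure D2:**
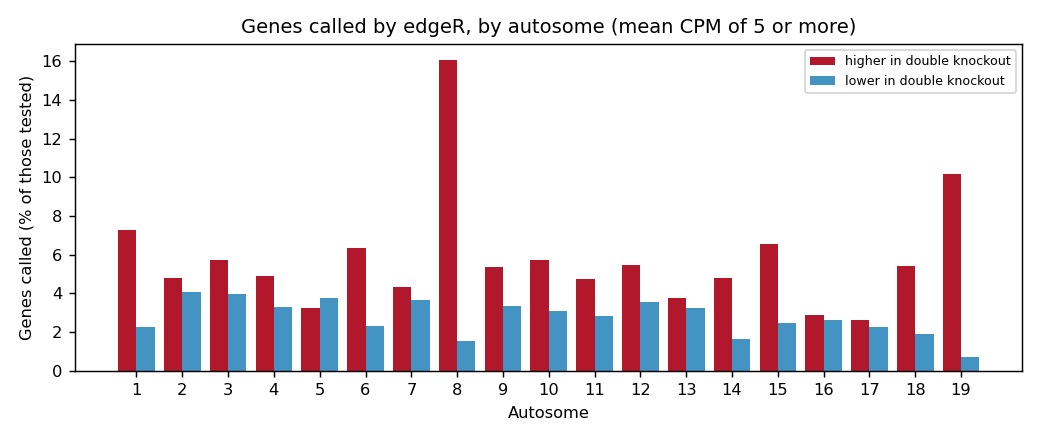
Share of tested genes with a mean of 5 CPM or more that edgeR called higher (red) or lower (blue) in the double knockout samples (y axis, percent), by autosome (x axis). Chromosome 8 has 16.1% called higher and 1.56% lower.

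Along the length of the chromosome the excess was present in most 10 Mb bins, counted by gene start from the chromosome's beginning. Of 13 bins, 11 had a median above 0.12, the upper quartile of the 231 bins of the other autosomes that hold 10 or more genes, and 4 were above their 95th percentile of 0.32. The highest median was in the bin from 90 to 100 Mb (0.47 over 44 members, 34 of them above 0), a stretch with Rbl2, Mmp2, the metallothioneins and Got2. It was followed by the most distal bin, from 120 to 130 Mb (0.41 over 77 members), and the bin from 80 to 90 Mb (0.36 over 76). The bins from 10 to 20 Mb (0.23), 20 to 30 Mb (0.34), 30 to 40 Mb (0.21), 40 to 50 Mb (0.25), 60 to 70 Mb (0.28), 70 to 80 Mb (0.27), 100 to 110 Mb (0.31) and 110 to 120 Mb (0.30) lay between 0.2 and 0.4. The bins whose median showed no excess were the first, from 0 to 10 Mb (0.00 over 26 members, 13 above 0), and the bin from 50 to 60 Mb (-0.15 over 12 members, 5 above 0). The second of these holds the fewest genes. In both bins double sample 2 was above the mean of the triple samples, by 0.235 and 0.455. Double sample 1 was not, at -0.004 and -0.16. The pooled within-group SD of a bin's sample medians ran from 0.036 (90 to 100 Mb) to 0.197 (50 to 60 Mb). Of the bins of other autosomes, 13 of 231 (5.63%) reached the median of chromosome 8 as a whole, the highest on chromosome 4 from 90 to 100 Mb (0.76), chromosome 1 from 20 to 30 Mb (0.72) and chromosome 19 from 20 to 30 Mb (0.62).

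The double samples differed in how even the excess was. Double sample 2 was above the mean of the triple samples in all 13 bins, from 0.21 to 0.46, and 10 of them were above the 95th percentile (0.30) of its own values in bins of other autosomes. Double sample 1 was above the triple samples in 11 of 13 bins, from -0.16 to 0.51, and 3 of them were above its 95th percentile of 0.38. Its genes also scattered more: the middle 50% of the members spanned 1.33 log2 units in double sample 1 and 0.51 in double sample 2. In 8 of 13 bins both double samples were above every triple sample, against 17 of 231 bins elsewhere (7.36%). These 8 were the bins from 10 to 30 Mb and all bins from 70 Mb to the end of the chromosome.

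**Figure D3:**
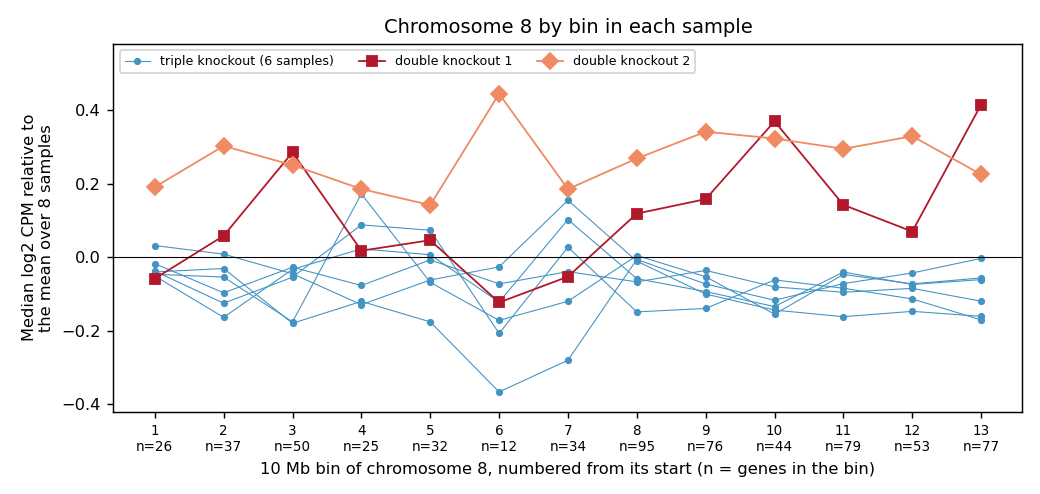
Median over the genes of each 10 Mb bin of chromosome 8 (x axis, numbered from the chromosome's start) of log2 CPM relative to the mean over 8 samples (y axis); lines join the bins of a sample. Double sample 2 (diamonds) is above 0 in every bin, and from bin 8 on both double samples lie above all triple samples (circles).

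The member of highest level in each bin shows what single abundant genes did. Arglu1, a splicing regulator, followed the chromosome, with a log2 fold change of 0.30 ± 0.28 (SE). It had 146 and 214 CPM in the double pair against 86.4 to 186 CPM, so the groups overlapped. Fgfr1 was at 0.22 ± 0.32, Tnks (tankyrase) at 0.23 ± 0.22, Spcs3 (signal peptidase) at 0.38 ± 0.25, Palld (palladin, an actin-associated protein) at 0.52 ± 0.32 and Nfat5 (the osmotic stress factor) at 0.60 ± 0.34, and none of these was called. Glg1, a Golgi protein, was at -0.02 ± 0.17, Mmp2 (a gelatinase) at -0.20 ± 0.37, Tpm4 (a tropomyosin) at -0.46 ± 0.48, Calr (calreticulin) at -0.49 ± 0.28 and Col4a1 (a basement membrane collagen) at -0.74 ± 0.42, again with no call. Slc25a4, the mitochondrial ADP/ATP carrier of muscle and heart, had 1501 and 569 CPM in the double pair against 348 to 642 CPM (1.16 ± 0.35, adjusted p = 0.0733, edgeR). Acta1, skeletal muscle actin, measured 33010 and 1233 CPM against 44.6 to 4123 CPM and gave 3.63 ± 1.30 (adjusted p = 0.116, edgeR), with double sample 2 inside the range of the triple samples.

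Genes that left the chromosome-wide shift were found with a second edgeR test, in which each gene was compared with the median shift of its own chromosome. A departure is the log2 difference from that shift. Of 640 members 33 departed upward (5.16%) and 17 downward (2.66%). Over all genes tested on all chromosomes 7.49% departed, 4.82% upward and 2.67% downward, and on the other autosomes, at the same minimum level, 4.92% and 2.7%. The shares on chromosome 8 were near this background. The balance of upward and downward departures depended on the method: it was 21 and 18 with upper-quartile scaling, 16 and 15 with the description code as a term, and 14 and 21 with limma-voom. All 33 upward departures were among the 103 genes called higher above, which is nearly bound to follow where the shift is above 0. The other 70 genes called higher did not differ detectably from the chromosome's shift. Of the 17 downward departures 10 were also called lower. The count of departures was 7 without double sample 1, 229 without double sample 2 and 16 to 29 with a triple sample left out. Many departures thus lost their call when a single triple sample was left out, which is not given for every gene below. Of the 50 genes, 49 kept their sign whichever sample was left out. The exception was Fbxo31 (named after its values were seen), at 507 and 35.6 CPM in the double pair against 32.1 ± 10.7 CPM (SD, n = 6) in the triple samples, with a departure of 2.80 that became -0.17 without double sample 1. Cdh15, Exoc3l, Fendrr, Foxf1, Lpar2 and Adgrl1 kept this departure call in all 8 fits, and without double sample 1 only 7 of the 50 did.

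**Figure D4:**
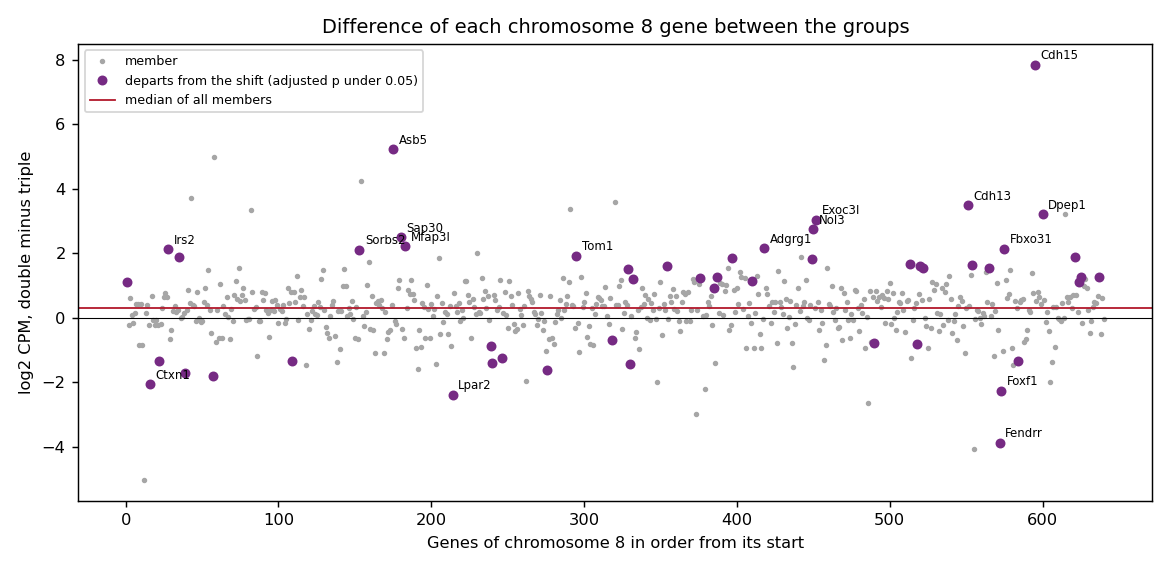
Difference in log2 CPM, double minus triple (y axis), of each of the 640 genes in their order along chromosome 8 (x axis); the red line is the median of 0.30 and purple points are the 50 genes that departed from it. Cdh15 lies farthest above and Fendrr is the lowest of the departing genes.

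The largest upward departures were those of 2 cadherin genes and a muscle gene, Cdh15, Asb5 and Cdh13. Cdh15 encodes M-cadherin, the cadherin of muscle precursor cells. Its levels were 329 and 343 CPM in the double pair, and 0.594, 4.78, 1.42, 0.235, 2.44 and 2.66 CPM from triple sample 1 to 6. The groups were far apart, with a departure of 7.09 ± 0.79 (SE; adjusted p = 0.00277, edgeR), and 7.08 without double sample 1. Asb5, an ankyrin repeat gene expressed in skeletal muscle, had 442 and 211 CPM against 3.57, 47.0, 4.15, 1.51, 14.3 and 18.3 CPM. The departure was 4.19 ± 0.99 (adjusted p = 0.0415, edgeR), but the call was lost without double sample 1 (3.51). Asb5 and Spcs3 overlap on opposite strands, and other genes named here also overlap a counted neighbour (Shcbp1, Adgra2, Adgre5, Mpv17l2, Gcdh, Junb, Rbl2, Nol3, Exoc3l, and the pairs Col4a1 with Col4a2, Wdr83 with Wdr83os and Gnpat with 2810004N23Rik). The strand setting of the counting is not given, so reads of overlaps cannot be told apart. Cdh13 encodes T-cadherin, an adiponectin receptor anchored in the membrane by lipid. It stood at 891 and 102 CPM against 25.7, 44.6, 15.2, 16.4, 27.4 and 48.8 CPM, a departure of 3.78 ± 0.66 that was 1.46 without double sample 1 (adjusted p = 0.304, edgeR). Most of the size of that departure thus came from 1 sample, although both double samples lay above the triple samples, as the choice of these genes required. Sorbs2, an adaptor of the sarcomere's Z-disc, departed by 2.21 ± 0.54, but was at 212 and 38.1 CPM against 13.9 to 37.6 CPM, and its departure was 0.46 without double sample 1.

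Of the 13 muscle genes of chromosome 8 listed for this comparison, 10 were members, and 5 were higher in the double samples (Cdh15, Ank1, Sorbs2, Rrad and Asb5), 0 were lower and 5 did not pass the test, where 16.1% of all members were called higher. Their median difference was 1.99, against 0.30 over the chromosome. Ank1, the ankyrin of red cells and muscle, measured 308 and 72.8 CPM against 3.35 to 41.3 CPM (3.26 ± 0.78, adjusted p = 0.0400, edgeR). The difference of Ank1 was 1.86 without double sample 1 (adjusted p = 0.433, edgeR), and its call was also lost without triple sample 1, 3, 5 or 6. The embryonic muscle markers given above, 1 of which is Cdh15 itself, summed to more in both double samples than in any triple sample, and their part in these values was not tested. Of the 8 cadherin genes of the chromosome 5 were members. Cdh13 and Cdh15 were higher in the double samples and 3 did not pass edgeR's test. DESeq2 called 2 of the 5 higher and 1 lower, beside 29.6% higher and 3.94% lower over all members it tested. Cdh5, the endothelial cadherin, was at 72.9 and 75.7 CPM against 81.4 ± 39.9 CPM (SD, n = 6), Cdh11, the mesenchymal one, at 123 and 283 CPM against 139 ± 67.4 CPM, and Cdh3 (P-cadherin) at 1.96 and 5.34 CPM against 11.1 to 67.8 CPM (-2.80 ± 0.87, adjusted p = 0.0806, edgeR).

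Other upward departures had varied roles. Exoc3l, a relative of the exocyst subunit Exoc3, had 34.9 and 44.8 CPM in the double pair, against 6.57, 3.8, 3.67, 2.82, 5.82 and 7.88 CPM in the triple set. Its departure was 2.67 ± 0.37 (adjusted p = 0.00662, edgeR), and 2.51 to 2.87 over the fits that left out a sample, so it did not hang on any 1 of them. Beside it lie Hsf4, a heat shock factor, and Nol3, an inhibitor of apoptosis of heart and skeletal muscle, 295 bases apart, which both departed upward too (named after their values were seen). Hsf4 was at 31.2 and 11.2 CPM against 5.31 ± 0.91 CPM (SD, n = 6) and Nol3 at 219 and 34.7 CPM against 15.2 ± 8.81 CPM. Both lost their call without double sample 1, at 0.76 and 0.87. Sap30, a subunit of the Sin3 histone deacetylase complex, was at 122 and 35.1 CPM against a narrow 10.0 to 13.6 CPM, a departure of 2.47 ± 0.35 (1.26 without double sample 1, adjusted p = 0.0506, edgeR). Dpep1, a membrane dipeptidase, measured 132 and 15.7 CPM against 2.74 to 8.02 CPM (3.56 ± 0.60). Without double sample 1 the departure of Dpep1 was 1.29 and no longer called (adjusted p = 0.273, edgeR).

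Irs2, an insulin receptor substrate, had 284 and 93.1 CPM against 19.4 to 55.5 CPM (1.97 ± 0.43), and the insulin receptor gene Insr, the first member of the chromosome and named after its values were seen, departed by 0.85 at 119 and 70.5 CPM against 43.1 ± 5.21 CPM (SD, n = 6). The culture medium held insulin in both groups, per the labels, and its part in these values was not tested. Adgrg1, an adhesion G protein-coupled receptor, stood at 75.9 and 41.1 CPM against 7.29 to 20.4 CPM (1.83 ± 0.39). Ankrd10 was at 594 and 187 CPM against 62.1 to 124 CPM (1.80 ± 0.36) and Tom1, an endosomal sorting protein, at 122 and 18.1 CPM against 10.5 to 14.2 CPM (2.20 ± 0.50). Without double sample 1 the departures of Irs2 (0.91), Insr (0.39), Adgrg1 (1.29), Ankrd10 (0.70) and Tom1 (0.21) were no longer called. The calls of Insr and Tom1 were also lost whichever triple sample was left out. Those of Irs2, Adgrg1 and Ankrd10 were lost without triple sample 1, 4 or 6, among others. With limma-voom Adgrg1 departed, but Irs2, Ankrd10 and Tom1 were not called.

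**Figure D5:**
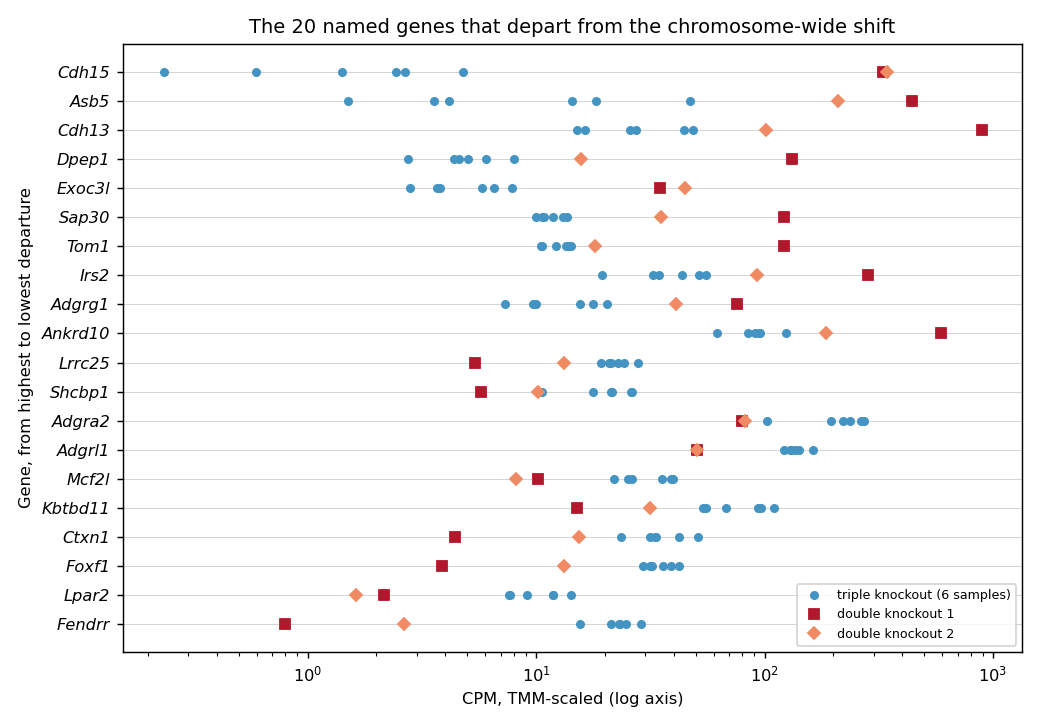
CPM (x axis, log scale) of the 10 named genes with the highest and the 10 with the lowest departure (y axis) in double sample 1 (squares), double sample 2 (diamonds) and the 6 triple samples (circles). Groups that do not overlap, once the chromosome's shift is removed, were a condition for choosing these genes. For the upper 10 both double samples therefore lie to the right of all triple samples. For the lower 10 they lie to the left.

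Fendrr had the largest downward departure, and its neighbour Foxf1 the third largest. Fendrr, a long non-coding RNA of the developing mesoderm, and Foxf1, the forkhead factor gene beside it, are separated by 1276 bases and read in opposite directions. Fendrr had 0.799 and 2.63 CPM in the double pair, and 28.9, 22.95, 24.8, 21.4, 23.3 and 15.6 CPM in the triple set (departure -4.02 ± 0.52, adjusted p = 0.00502, edgeR). Foxf1 measured 3.88 and 13.2 CPM against 39.1, 29.4, 31.4, 42.4, 36.1 and 32.0 CPM (-2.33 ± 0.45, adjusted p = 0.0218, edgeR). Groups without overlap were a condition for naming Fendrr and Foxf1 here. Both genes kept their call without double sample 1 (-3.44 and -1.73). Of 15 developmental transcription factor genes listed for the chromosome 9 were members, and only Foxf1 among them was called. The other forkhead genes of the same cluster, Foxc2 and Foxl1, were below the minimum.

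Of the other genes named below the chromosome's shift, 3 encode G protein-coupled or adhesion receptors (Adgrl1, Lpar2 and Adgra2). Adhesion receptors also departed upward, Adgrg1 by 1.83 and Adgre5 by 1.185. Adgre5 was named after its values were seen and lost its call whichever sample was left out. Adgrl1, the latrophilin 1 adhesion receptor, had 50.6 and 50.7 CPM against 136, 142, 129, 121, 163 and 130 CPM, a departure of -1.73 ± 0.18 with the smallest adjusted p of the members (0.00241, edgeR). Lpar2, a lysophosphatidic acid receptor, stood at 2.16 and 1.62 CPM against 7.64 to 14.2 CPM (-2.75 ± 0.40), and Mcf2l, a guanine nucleotide exchange factor, at 10.2 and 8.15 CPM against 22.0 to 39.8 CPM (-2.06 ± 0.31). For these 3 genes both double samples were close to each other. Adgra2, an adhesion receptor of blood vessel growth, was at 79.7 and 82.1 CPM against 103 to 273 CPM (-1.71 ± 0.38). Kbtbd11 (-2.06), Ctxn1 (-2.14), Shcbp1 (-1.65) and the leukocyte gene Lrrc25 (-1.58) completed the named genes, for which groups without overlap were a condition. Without double sample 1 the calls of Mcf2l, Adgra2, Kbtbd11, Ctxn1, Shcbp1 and Lrrc25 were lost, with departures of -2.26, -1.72, -1.66, -1.53, -1.33 and -1.09. Mcf2l and Kbtbd11 kept their call whichever triple sample was left out. Adgra2, Ctxn1, Shcbp1 and Lrrc25 lost theirs without triple sample 1, 3, 4 or 6, among others. These last genes were also not called lower in the first test (adjusted p = 0.0510 to 0.0683, edgeR).

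Most immune and interferon genes lay below 0. Of 23 listed genes 18 were members, and 17 of these were below 0, with a median of -0.94. Ifi30, a lysosomal thiol reductase of antigen presentation, measured 57.0 and 99.4 CPM against 136 to 217 CPM and departed by -1.50 ± 0.28, and Cyba, a subunit of the phagocyte NADPH oxidase, had 34.7 and 81.8 CPM against 113 to 157 CPM and departed by -1.52 ± 0.32. The groups did not overlap in either gene. Without double sample 1 the departures of Ifi30 (-1.18), Cyba (-1.06) and Cyld (0.64) were no longer called. The gene called higher was Cyld, a deubiquitinase that restrains NF-kappaB signalling, at 149 and 103 CPM against 38.8 to 60.4 CPM (departure 0.97 ± 0.20), and 15 members did not pass edgeR's test. EdgeR called 2 of the 18 lower and 1 higher, beside 1.56% lower and 16.1% higher over all members. DESeq2 called 3 of the 18 lower and 1 higher, beside 3.94% lower and 29.6% higher over all members it tested. The leukocyte markers listed above summed to less in double sample 1 than in any triple sample, and their part in these values was not tested.

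The medians of mitochondrial genes and of genes of protein synthesis and breakdown lay above the chromosome's median. Of 18 mitochondrial members 17 were above 0, with a median of 0.85, and edgeR called 6 higher in the double samples, 0 lower and 12 in neither direction, beside 16.1% called higher over all members. DESeq2 called 11 of the 18 higher, beside 29.6% of all members it tested. Got2, the mitochondrial aspartate aminotransferase, stood at 442 and 129 CPM against 96.5 to 123 CPM (1.40 ± 0.35), Mpv17l2 at 46.0 and 24.0 CPM against 9.90 to 17.5 CPM (1.22 ± 0.29), Spg7 (paraplegin, a protease of the inner membrane) at 124 and 103 CPM against 68.3 to 78.9 CPM (0.67 ± 0.14) and Gcdh (glutaryl-CoA dehydrogenase) at 32.1 and 16.6 CPM against 5.45 to 10.3 CPM (1.64 ± 0.34). In each the groups were apart, with double sample 1 the highest. Without it none of these 4 was called, and the differences were 0.24 for Got2, 0.67 for Mpv17l2, 0.52 for Spg7 and 1.08 for Gcdh. The share of counts on the mitochondrial genome was also highest in double sample 1, and its part was not tested. Of 15 translation and proteasome members edgeR called 5 higher, 0 lower and 10 in neither direction, with a median of 0.63. DESeq2 called 8 of them higher, beside the same 29.6% of all members. Psmd7, a proteasome subunit, was at 394 and 220 CPM against 127 to 158 CPM (1.13 ± 0.22), Nob1, a ribosome assembly factor, at 75.9 and 72.5 CPM against 37.6 to 50.3 CPM (0.83 ± 0.16), and Kars, the lysyl-tRNA synthetase, at 384 and 263 CPM against 151 to 210 CPM (0.83 ± 0.20). Eif4ebp1, an inhibitor of cap-dependent translation, was also called (1.40 ± 0.35), with double sample 2 at 131 CPM just below triple sample 6. Without double sample 1 these 4 lost their call, at 0.65 for Psmd7, 0.79 for Nob1, 0.53 for Kars and 0.58 for Eif4ebp1. Of the named genes of these lists, only Gcdh differed from the chromosome's shift (1.34 ± 0.34, and 0.75 with no call without double sample 1).

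Other lists lay closer to the chromosome or below it. Of 15 genes around Fgfr1 12 were above 0, with a median of 0.31. EdgeR called 2 higher, Vdac3 (a mitochondrial pore protein, 0.74 ± 0.19) and Eif4ebp1, a share near the 16.1% of all members. DESeq2 called 8 higher. Over all members it tested, DESeq2 called 29.6% higher and 3.94% lower. Vdac3 was at 0.39 and not called without double sample 1. Of 21 replication and repair genes 11 were above 0 (median 0.03) and edgeR called 2 higher (DESeq2 called 4), Rbl2 (the pocket protein p130), at 132 and 68.1 CPM against 38.0 to 54.2 CPM, and Terf2ip (the telomere protein Rap1), at 60.2 and 28.9 CPM against 18.8 to 21.9 CPM. Their differences, 1.14 and 1.15, were 0.58 and 0.52 without double sample 1 and no longer called. Of 14 matrix and adhesion genes 5 were above 0 (median -0.38) and edgeR called 0 of them, with 5 at an unadjusted p under 0.05. DESeq2 called 3 higher and 1 lower. Among them Itgb1, the integrin beta 1 chain, measured 1821 and 1280 CPM against 927 to 1149 CPM, with no overlap of the groups (0.62 ± 0.21, adjusted p = 0.0974, edgeR). Of 7 immediate early and stress response genes 5 were above 0 and edgeR called Junb (DESeq2 called 3 higher), at 248 and 163 CPM against 95.2 to 139 CPM (0.91 ± 0.21, and 0.57 with no call without double sample 1). Mt1 and Mt2, the metal-binding metallothioneins, were high in double sample 1 alone: Mt1 was at 784 and 42.7 CPM against 27.99 to 117 CPM and Mt2 at 964 and 37.8 CPM against 22.6 to 125 CPM. EdgeR called neither, with both at an unadjusted p under 0.05, and DESeq2 called both higher.

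Divergent neighbours mostly lay on the same side, as many pairs of members would with 67.2% of all members above 0 and 16.1% called higher. Other pairs were not counted for comparison, and the part of a shared start region was not tested. Of 35 pairs of members whose RefSeq start windows overlap on opposite strands, 23 had both genes above 0, 6 had both below and 6 were split. Both genes were called higher in 3 pairs: Gnpat with 2810004N23Rik, Terf2ip with Kars, and Wdr83 with Wdr83os (the pairs were named after their values were seen). Gnpat, a peroxisomal enzyme of ether lipid synthesis, was at 322 and 128 CPM against 85.0 ± 7.39 CPM (SD, n = 6), and 2810004N23Rik at 95.2 and 70.7 CPM against 38.4 ± 3.03 CPM. Both departed upward, by 1.12 and 0.82, and this pair, whose shared bases are in capitals above, was the only divergent pair in which both genes did so. Without double sample 1 neither departure was called, at 0.27 and 0.56, while 2810004N23Rik kept its call as higher. Col4a1 and Col4a2, the collagen pair read from a common start region, lay together below 0, with log2 fold changes of -0.74 and -0.45 and no call.

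Several of the largest differences on the chromosome passed neither test (these genes were chosen after their values were seen). The muscle genes Myom2 (2191 and 129 CPM against 1.37 to 109 CPM) and Pdlim3 (1661 and 161 CPM against 3.15 to 129 CPM) had log2 fold changes of 4.88 ± 1.36 and 3.94 ± 1.25. Ucp1, the uncoupling protein of brown fat, was at 285 CPM in double sample 1 but 0.180 CPM in the other, against 0 to 9.66 CPM. In the other direction Cd209f, a C-type lectin gene, was at 0.200 and 0.0361 CPM against 1.40 to 28.4 CPM, and Necab2, a calcium-binding protein gene of neurons, at 0.240 and 0.289 CPM against 0.683 to 24.3 CPM. In Cd209f and Necab2 the groups did not overlap, but the triple samples differed among themselves by more than 10-fold.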

How the data were processed

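RNA-seq of 8 samples was analysed. Per the labels, RNA was enriched for mRNA and libraries were made with a NEBNext Ultra II kit. The deposited files hold raw gene counts (whole numbers), as made by the authors. HTSeq, DESeq2, mm10 and GRCm38 are named in the submitters' processing notes without their roles. For aligner, annotation release and strand setting, nothing is given in the sources used here, so reads of overlapping genes cannot be told apart. 137 of the 640 members overlap another counted gene that has at least 2% as many counts. Coordinates are on GRCm38, counted from 1, and for 635 members match GENCODE M21. Symbols were found for 52403 of 52636 genes.

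Counts were scaled by TMM. Log2 CPM used a prior count of 2. Differences are means of log2 CPM, double minus triple. Genes passing filterByExpr (17709) were tested with edgeR 4.0.16 (R 4.3.3) over all 8 samples with no covariate. Benjamini-Hochberg adjusted p under 0.05 was a call. Standard errors were derived from the test statistic. For departures the median shift of the gene's own chromosome was an offset in the double samples. Depth limits precision through counting error. Alternatives used DESeq2 1.42.0 and limma 3.58.1, other scalings, filters, member minimums, centrings and left-out samples. Every pair of samples differed beyond counting noise (lowest median chi-square per gene 10.5).

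The members and lists were chosen with earlier results of these data known. Named genes are the 10 largest departures each way with adjusted p under 0.05, groups that do not overlap, and a known symbol, the most abundant member of each bin, up to 4 called members of each list (2 where none was called), and runs of 3 or more consecutive departures, of which there were none. The members nearest the minimum are also named. Differences of single genes given with ± are edgeR log2 fold changes and their SE.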

Additional observations from a re-analysis of the deposited data

Results flagged for a closer look

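In 67 sets of values from the 6 triple samples, the chromosome 8 median, its 13 bins and the named genes, 3 held a sample far from the other 5, and chance gives about 1 in 20. Adgra2 stood at 103 CPM in triple sample 2, where the next lowest triple sample was at 196 CPM. Mpv17l2 stood at 9.90 CPM in triple sample 1, with the next lowest at 14.4 CPM. Mt1 stood at 27.99 CPM in triple sample 5, with the next lowest at 82.3 CPM.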

How the results depend on the processing

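The chromosome 8 median kept its sign under every alternative run, from 0.19 without the genes called to 0.34 under RLE scaling. It moved by more than 1 SD of the sample medians (0.028) in these 2 cases, with a member minimum of 20 CPM (0.33), without double sample 1 (0.33) and without double sample 2 (0.27). Over all fits that left out a sample it was 0.27 to 0.33. Relative to the other autosomes, an alternative chosen after seeing the data, it was 0.32, 0.31 to 0.35 without any 1 sample, and 0.23 without called genes. In 5 Mb bins 22 of 26 medians were above 0, from -0.63 to 0.53, or 20 of the 21 bins with 10 or more genes, and in 20 Mb bins all 7. The count of calls, 113, was 213 with DESeq2, 79 with limma-voom and 13 to 260 when a sample was left out. The 50 departures were 141 with DESeq2, 35 with limma-voom, 31 with the description code as a term, 47 against the gene's own bin and 7 to 229 without a sample. The cause of these moves was not tested. RLE scaling split them into 27 up and 20 down and upper-quartile scaling into 21 up and 18 down, against 33 and 17, and limma-voom gave 14 up and 21 down. No gene named by the rule and called changed direction in any alternative. No paired analysis was possible because the replicate numbers were given in accession order and pair no samples. With 2 double samples, the smallest upward difference called was 0.63.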
